A study of Homo sapiens with 2 samples.

Results

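The keratin genes were followed in RNA-seq of human Stage 6 cells, the last stage of a stepwise pancreatic differentiation. All rows whose gene name was KRT, a number and at most one letter from A to C were taken, which gave 55 keratin genes of 55797 genes. Keratin pseudogenes and keratin-associated proteins were outside this rule. KRT7, KRT8, KRT18 and KRT19, the keratins taken here as those of simple epithelia, were compared with the other 51 keratins. Both libraries came from H1, a single established human embryonic stem cell line, and from cultures that hold insulin-expressing cells among other cell types. Live cells (1 library) were neither fixed nor sorted, and their RNA was isolated with the RNeasy protocol. Processed cells (1 library) went through MARIS, that is, they were fixed in 4% paraformaldehyde, permeabilized, labelled with antibodies and run through the sorter in a mock sort that kept every cell, before RNA isolation with a modified RecoverAll kit. The comparison asks whether this treatment changes the representation of transcripts. With 1 library per condition no difference has a replicate check and no test was possible.

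Keratins are intermediate filament proteins of epithelial cells. A filament is built from pairs of chains, each pair joining an acidic type I keratin with a basic or neutral type II keratin, so that cells express the types together. Simple, single-layered epithelia such as those of the pancreas, liver and gut use KRT8 and KRT18, to which duct cells add KRT7 and KRT19. The layered epithelia of skin and mouth, and the hair and nail, use most of the other members. KRT20, KRT23 and KRT80, counted here with the others, were also classed as simple epithelial. Most human type II genes and KRT18 lie in a cluster on chromosome 12, and the other type I genes lie in a cluster on chromosome 17.

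Levels are given as FPKM, the fragments of a gene scaled to its exon length and to the size of the library, so that levels of different genes can be set side by side. Each FPKM was deposited with a lower and an upper bound whose level is not stated, and these bounds describe the precision within a library alone. Differences are log2 ratios of processed to live FPKM after adding 1 to each, which makes the change of a gene with low FPKM look smaller than it is. From the steps between low FPKM values, a single fragment weighed 1.07 times as much in the processed as in the live library. What the normalization counted is not given, so this does not settle which library was deeper. All 5 islet endocrine markers and all 3 pancreatic progenitor markers examined reached an FPKM of at least 1 in both libraries. So did all 3 hepatocyte or endoderm, all 3 pluripotent and all 3 neural markers, so this level did not single out pancreatic cells. PDX1 had 66.5 FPKM in live and 72.1 in processed cells, below AFP (460 and 550 FPKM) and LIN28A (119 and 88.7 FPKM). The part of each cell type in the keratin values was not tested. Of the epithelial markers, EPCAM had 182 FPKM in live and 180 in processed cells, and CDH1, which encodes E-cadherin, had 161 and 195 FPKM. VIM, the intermediate filament of mesenchymal cells, stood at 514 and 485 FPKM, while the other 5 mesenchyme markers lay between 2.96 and 31.9 FPKM in live and between 1.17 and 26.6 in processed cells. In such bulk RNA, fewer cells of a type and less RNA per cell cannot be told apart.

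The simple epithelial keratins carried nearly all keratin RNA in both libraries. They summed to 3263 FPKM in live cells and 3002 in processed cells, which was 99.3% and 98.9% of the summed FPKM of all 55 keratins. All keratins together took 0.643% of the summed FPKM of the live library and 0.608% of that of the processed library. The other 51 keratins summed to 22.1 and 33.7 FPKM.

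KRT8, the type II chain of simple epithelia, was the most abundant keratin. It lies on the minus strand of chromosome 12 (GRCh37, 53290971 to 53343738) and had 1679 FPKM in live cells (bounds 1670 and 1688), the 25th highest value of all genes, and 1479 in processed cells (bounds 1472 and 1485). KRT18, its type I partner, lies next to it on the plus strand (chromosome 12, 53342655 to 53346685) and had 998 FPKM in live cells (bounds 992 and 1004) and 959 in processed cells (bounds 955 and 964). KRT18 ranked 56th in both libraries. KRT19 is a type I keratin of ducts and many other simple epithelia and is known for its very short tail. It lies on chromosome 17 (39679869 to 39684560) and had 543 FPKM in live cells (bounds 538 and 548) and 518 in processed cells (bounds 513 and 523). For these 3 keratins the live bounds lay above the processed bounds, and the log2 ratios were -0.18 for KRT8, -0.057 for KRT18 and -0.067 for KRT19. KRT7, a type II keratin of ducts and glands, was far lower. It lies at the other end of the chromosome 12 cluster (52626304 to 52645970) and had 43.9 FPKM in live cells (bounds 42.5 and 45.3) and 45.6 in processed cells (bounds 43.6 and 47.5), with overlapping bounds and a log2 ratio of 0.053. Of the markers of pancreatic duct, where KRT7 and KRT19 are typical, all 6 reached 1 FPKM. They summed to 76.8 FPKM in live and 67.8 in processed cells and had log2 ratios from -0.92 for SPP1 to 0.33 for CFTR, the chloride channel of duct cells. Their part in the keratin values was not tested.

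The order KRT8, KRT18, KRT19, KRT7 held in both libraries, and the bounds of neighbours in this order did not overlap within either library. KRT8 stood 38.2 times above KRT7 in live cells and 32.4 times in processed cells. The ratio of KRT19 to KRT18 was 0.544 in live and 0.540 in processed cells, whereas the ratio of KRT18 to KRT8 was 0.594 in live and 0.649 in processed cells. None of the 4 passed 2-fold. The directions depended on the scaling. Processed over live FPKM had a median of 0.932 across genes with at least 1 FPKM in both libraries, and dividing by it shifts every log2 ratio by up to 0.10. After this scaling KRT18 and KRT19 turned to log2 ratios of 0.044 and 0.034, and KRT8 stayed lower in processed cells at -0.082.

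**Figure D1:**
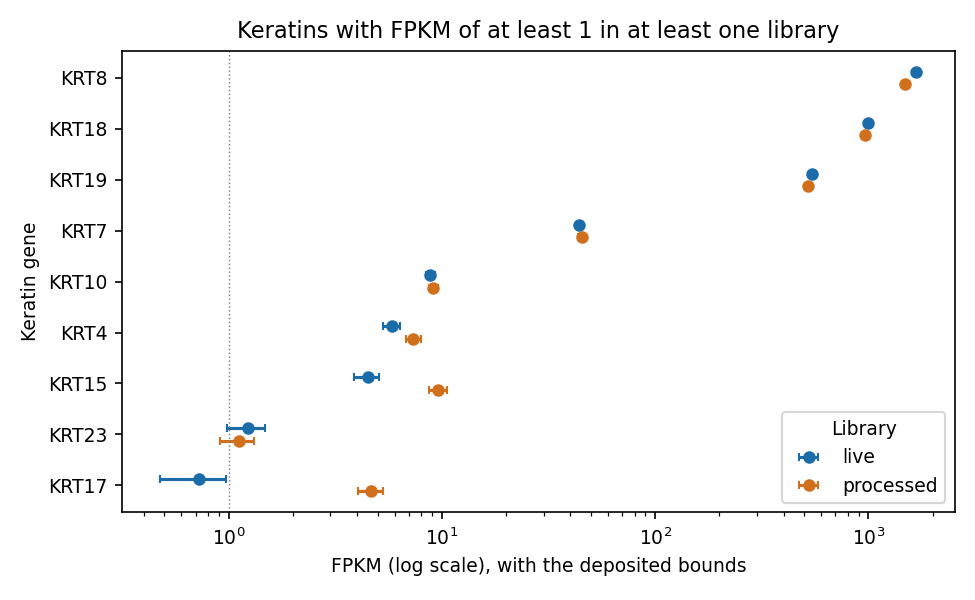
FPKM on a log axis of the 9 keratins that reached 1 FPKM in at least one library, with 1 point for the live library (blue) and 1 for the processed library (orange). Whiskers are the deposited bounds and the dotted line marks 1 FPKM. KRT8, KRT18, KRT19 and KRT7 lie at 43.9 FPKM or more in both libraries, and the widest gap between libraries is that of KRT17.

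With pseudogenes left out, type I and type II transcripts were close to balance. The 28 type I keratins summed to 1556 FPKM in live cells and the 26 type II keratins to 1729 FPKM, a ratio of 0.900. In processed cells the sums were 1502 and 1533 FPKM, a ratio of 0.980. KRT18 alone stood at 0.594 of KRT8 in live and 0.649 in processed cells, so the near-balance also rested on KRT19. With KRT19 added to KRT18 and KRT7 to KRT8, the ratio was 0.895 in live and 0.969 in processed cells. Without KRT8 and KRT18, the ratio of type I to type II was 11.1 in live and 10.005 in processed cells. KRT19 was the main type I keratin and KRT7 the main type II keratin that remained. Of the 55 keratins, KRT222 was counted with neither type. Adding the pseudogenes of KRT8 and KRT18, described below, lowered the ratio of all type I to all type II to 0.668 in live and 0.715 in processed cells.

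KRT8 and KRT18 have many processed pseudogenes, copies of the spliced transcript inserted elsewhere in the genome, which can take fragments from the parent genes in quantification. The files list 39 pseudogenes of KRT8 and 38 of KRT18. To show how close such copies are, the middle 80 bases of the coding sequence of KRT18 (GENCODE release 44, GRCh37) are set beside the same bases of 3 of its pseudogenes, those of highest live FPKM with status OK and no gap there. Chromosomes 8, X and Y were not used. Capitals mark bases that differ from KRT18.
KRT18 (chr12:53344637-53345290, plus strand, spliced, coding bases 604 to 683): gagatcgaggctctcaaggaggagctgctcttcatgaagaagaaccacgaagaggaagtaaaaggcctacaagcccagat
KRT18P29 (chr2:182826525-182826604, minus strand): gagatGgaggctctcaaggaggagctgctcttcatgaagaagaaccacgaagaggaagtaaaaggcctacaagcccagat
KRT18P38 (chr6:19613567-19613646, plus strand): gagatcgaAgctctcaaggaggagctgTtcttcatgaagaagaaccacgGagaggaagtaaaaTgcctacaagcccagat
KRT18P16 (chr5:122972404-122972483, plus strand): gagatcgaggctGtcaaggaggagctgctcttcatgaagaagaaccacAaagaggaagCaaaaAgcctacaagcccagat
In this window KRT18P29 differs from KRT18 at 1 base, and KRT18P38 and KRT18P16 differ at 4 bases each. The reads were 80 nt long, the length of this window.

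The KRT8 pseudogenes had far higher FPKM than those of KRT18. They summed to 618 FPKM in live cells and 583 in processed cells, 26.9% and 28.3% of the sum of KRT8 and its pseudogenes. FPKM is scaled to length, and the longest KRT8 transcript has 2862 nt against 1449 nt for KRT8P3. Such shares of summed FPKM are therefore not shares of fragments. The KRT18 pseudogenes summed to 11.4 and 10.2 FPKM, 1.13% and 1.05% of the corresponding sum. Those of KRT19, 3 in number, summed to 2.71 and 2.06 FPKM. A single copy, KRT8P3 on chromosome 8, held most of the KRT8 pseudogene signal, with 368 FPKM in live cells (bounds 363 and 373) and 341 in processed cells (bounds 336 and 346). KRT8P45 had 90.9 FPKM in live and 72.9 in processed cells, and KRT8P10 had 32.0 and 26.3 FPKM, with separate bounds. KRT8P33 (54.7 and 59.4 FPKM) and KRT8P13 (32.8 and 41.4 FPKM) carried the status LOWDATA, the mark for loci where the software had too little or too complex data, and lower bounds of 0.

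The KRT8 pseudogenes with the highest values were close to KRT8 in sequence. Over the 37 KRT8 pseudogenes that matched at least 50% of the 1449 coding bases, identity to KRT8 ranged from 80.9% to 97.1%, and it was 97.1% for KRT8P3. Spearman's rho between identity and FPKM was 0.754 in live and 0.823 in processed cells. For the 35 such pseudogenes of KRT18, with identities from 82.2% to 95.6%, it was 0.573 and 0.598. These are descriptions across pseudogenes, which share a parent sequence and a library. An exact 80-base stretch of a KRT8 transcript occurred in 8 of the 39 KRT8 pseudogenes, and these 8 held 91.4% of the KRT8 pseudogene FPKM in live and 89.5% in processed cells. Of the 80-base stretches of the KRT8 coding sequence, 19.7% occurred in a pseudogene, against 3.55% for KRT18, 2.47% for KRT17 and 0 for KRT4, KRT7, KRT10, KRT15, KRT19 and KRT23. These shares treat single reads of the coding sequence, while the reads were paired, so a fragment can be less ambiguous than 1 of its reads. The levels of KRT8 and, to a lesser degree, KRT18 are uncertain because of the shared stretches, by an amount that was not measured. Whether the fragments came from the parent or from the copies was not tested.

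Counting the pseudogenes with their parents moved the level of KRT8 and the ratio of type I to type II keratins. The log2 ratios between the libraries changed little. KRT8 with its pseudogenes came to 2296 FPKM in live and 2061 in processed cells, a log2 ratio of -0.16 beside -0.18 for KRT8 alone. KRT18 with its pseudogenes had a log2 ratio of -0.058 beside -0.057 alone. With the pseudogenes included, the ratio of type I to type II keratins was lower, at 0.668 in live and 0.715 in processed cells.

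**Figure D2:**
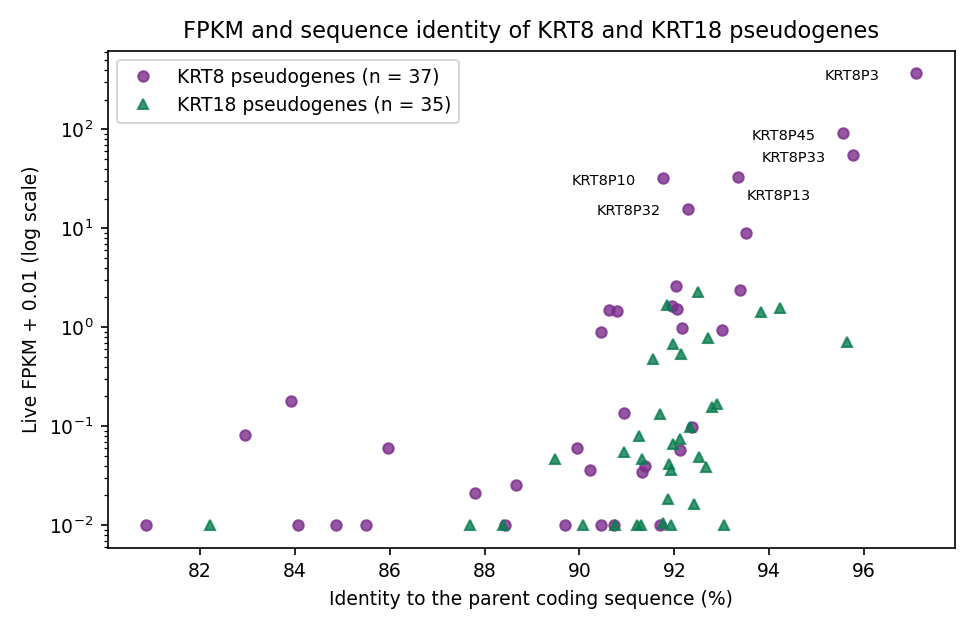
Live FPKM plus 0.01 on a log axis against identity to the coding sequence of the parent gene, for 37 pseudogenes of KRT8 (purple circles) and 35 pseudogenes of KRT18 (green triangles) that match at least 50% of it. The KRT8 pseudogenes of at least 10 FPKM are named and all lie at identities of 91.8% or more, and no KRT18 pseudogene exceeds 2.28 FPKM.

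Among the other 51 keratins, 5 reached 1 FPKM in at least one library. KRT10, a type I keratin of the suprabasal epidermis (chromosome 17, 38974369 to 38978847), had 8.83 FPKM in live and 9.10 in processed cells, and its bounds overlapped. Its usual type II partner in epidermis, KRT1, was listed at 0 in live cells and at 0.00196 in processed cells. KRT4, a type II keratin of internal layered epithelia such as the oesophagus (chromosome 12, 53200333 to 53208335), had 5.84 FPKM in live cells (bounds 5.31 and 6.37) and 7.35 in processed cells (bounds 6.76 and 7.95). KRT13, the type I chain that pairs with KRT4 in those tissues, was listed at 0 in both libraries. KRT23, a type I keratin, stood near the limit of 1 FPKM, at 1.23 FPKM in live and 1.11 in processed cells with overlapping bounds. KRT10 and KRT4 were thus measured with their usual partners at or near 0. The highest of the 51, KRT10 in live and KRT15 in processed cells, lay below the lowest of the 4 simple epithelial keratins.

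KRT15 and KRT17 differed most between the libraries. KRT15, a type I keratin of basal cells in layered epithelia, lies beside KRT19 (chromosome 17, 39669995 to 39678781). It had 4.48 FPKM in live cells (bounds 3.89 and 5.07) and 9.60 in processed cells (bounds 8.67 and 10.5), with a log2 ratio of 0.95, just inside 2-fold. After scaling by the median ratio it was 1.04, past 2-fold. KRT17, a type I keratin of skin appendages that is induced in wounds, lies at the end of the same cluster (chromosome 17, 39775689 to 39781094). It had 0.722 FPKM in live cells (bounds 0.477 and 0.967) and 4.65 in processed cells (bounds 4.03 and 5.26), with a log2 ratio of 1.71. Without a pseudocount KRT17 was 6.44 times and KRT15 2.14 times as high in processed as in live cells. In the order of levels, KRT15 moved above KRT10 and KRT4 in processed cells, where its bounds overlapped those of KRT10.

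KRT17 was the keratin past 2-fold, 1 of the 9 that reached 1 FPKM in at least one library, and it entered those 9 through the processed library alone. Of all 17326 genes that reached this level, 12.8% passed 2-fold in either direction and 6.57% did so with the higher value in processed cells. Of the 8357 genes whose mean FPKM was between 1 and 10, as for KRT17 and KRT15, 16.9% passed 2-fold and 9.54% did so in the direction of higher values in processed cells. For the 646 genes with a mean of at least 100, where KRT8, KRT18 and KRT19 lie, 1.86% passed 2-fold in either direction. The share of keratins past 2-fold is therefore near that of genes in general. The bounds of live and processed cells were separate for 6 of the 9 keratins, against 71.8% of all such genes and 75.9% of those with a mean of at least 100 FPKM. The median log2 ratio of the 9 keratins was 0.039, beside -0.092 for all 17326 genes. It was -0.062 over the 4 simple epithelial keratins and 0.29 over the 5 others. The median of the 9 and that of the 5 others both count KRT17, which reached 1 FPKM in processed cells alone and raises them. The ranges of these groups overlapped, with KRT23 at -0.076 and KRT10 at 0.039 among the simple epithelial values.

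**Figure D3:**
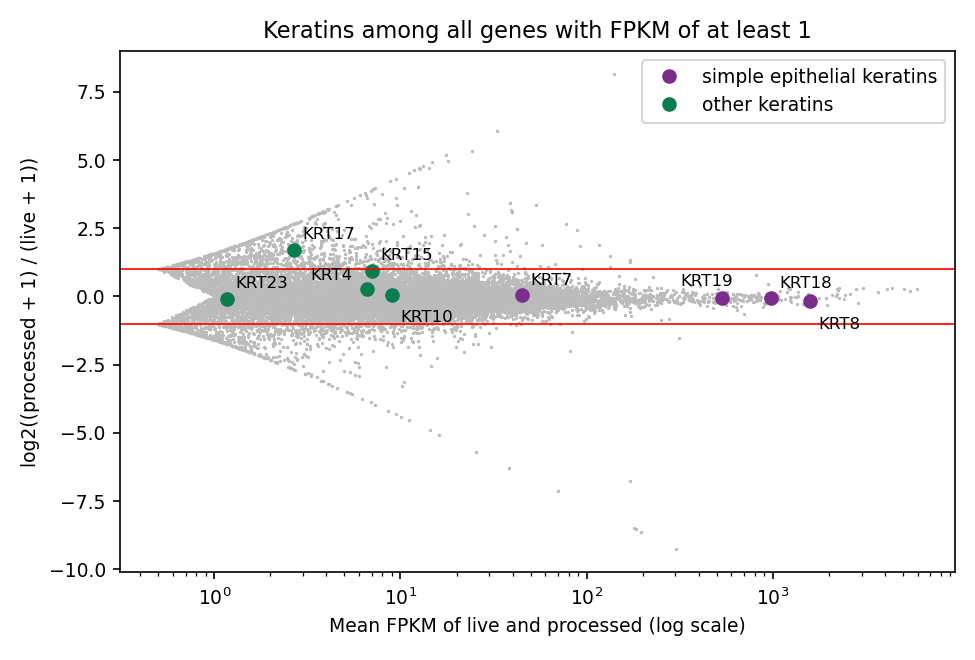
Log2 ratio of processed to live FPKM (pseudocount 1) against the mean FPKM on a log axis, for 17326 genes that reached 1 FPKM in at least one library (grey). Simple epithelial keratins are purple, other keratins green, and red lines mark 2-fold. KRT17 lies above the upper line and KRT15 just below it, while KRT8, KRT18, KRT19 and KRT7 lie close to 0.

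The summed FPKM of the 51 other keratins was 1.53 times as high in processed as in live cells, while that of the simple epithelial keratins was 0.920 times as high. Without KRT15 and KRT17 the sum of the others went from 16.9 to 19.5 FPKM, 1.15 times. Genes of layered epithelium differed in both directions beside KRT15 and KRT17. Of a list of 6 markers, IVL, LOR, FLG and DSG3 were listed at 0 in both libraries. TP63, the transcription factor of basal cells, had 2.97 FPKM in live and 2.49 in processed cells, and SFN had 1.28 and 1.04 FPKM. The 6 summed to 4.25 FPKM in live and 3.54 in processed cells. KRT4, given above, and TGM1 were higher in processed cells with separate bounds. TGM1, a transglutaminase that cross-links the cornified envelope, had 2.05 FPKM in live and 9.77 in processed cells. Of 8 cornified envelope genes listed, it alone reached 1 FPKM. COL17A1, which anchors basal cells, was lower with separate bounds, at 1.46 and 0.330 FPKM. Separate bounds were found for 71.8% of all genes that reached 1 FPKM in at least one library. The part of cells of layered epithelium in the KRT15 and KRT17 values was not tested. KRT5, the type II keratin of basal cells, had 0.0810 FPKM in live cells and was listed at 0 in processed cells. KRT6A, a type II keratin found with KRT17 in wounds, was below 0.0001 FPKM in live cells and had 0.194 in processed cells, also with separate bounds. KRT6B and KRT6C, of the same class, were below 0.0001 FPKM in both libraries. Sequence shared between KRT6A and other keratins was not examined. The span given for JUP (chromosome 17, 39775692 to 39943183), the gene of the desmosome protein plakoglobin, covers 5403 bases of the KRT17 span on the same strand. JUP had 64.0 FPKM in live and 50.3 in processed cells. The later annotation used here has no JUP transcript over KRT17, so sequence shared between these genes was not examined, and whether fragments were exchanged between them was not tested. KRT16, a close relative of KRT17, was listed at 0 in both libraries, and its 5 pseudogenes summed to 0.684 FPKM in live and 1.81 in processed cells.

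The remaining 46 keratins stayed below 1 FPKM in both libraries, and 40 of the 55 stayed below 0.1 FPKM. By class, 17 hair and nail keratins reached at most 0.268 FPKM, and 9 keratins of the inner root sheath and companion layer of the hair follicle reached at most 0.00515 FPKM. KRT20, a type I keratin of intestinal epithelium, was listed at 0 in both libraries. Between 0.1 and 1 FPKM lay 6 keratins. KRT80 had 0.343 FPKM in live and 0.619 in processed cells, and KRT222 had 0.265 and 0.574 FPKM. KRT40, a hair keratin, showed the opposite pattern with 0.268 and 0.0187 FPKM. The bounds of KRT80, KRT222 and KRT40 did not overlap between libraries. KRT79 and KRT77, type II keratins of skin and its appendages, were listed at 0 in live cells and at 0.291 and 0.196 in processed cells. The sixth was KRT6A, given above.

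Several of the lowest values correspond to 1 or 2 fragments. For KRT71, which has 1 annotated transcript, the FPKM divided by the value of one fragment came to 0.995 fragments in live and 1.003 in processed cells. For KRT84 it came to 1.99 and 1.004 fragments, for KRT3 to 2.01 fragments in processed cells and for KRT75 to 0.932 fragments in processed cells. An FPKM above 0 was given to 23 keratins in live and 26 keratins in processed cells. These counts include 5 keratins in each library with values below 0.0001 FPKM, less than a single fragment is worth. The live library alone gave a value above 0 to KRT5, KRT72 and KRT78, 3 keratins, and the processed library alone to 6 keratins. For genes in general these shares were 9.63% (live alone) and 1.76% (processed alone), also counting any value above 0. Of the 6 keratins, KRT76 and KRT6B were below 0.0001 FPKM, and KRT1 and KRT75 came to 0.417 and 0.932 fragments. KRT77 and KRT79 came to 58.4 and 52.8 fragments. Of those in live cells alone, KRT72 came to 0.781 fragments. A value of exactly 0 was given to 26 keratins in both libraries.

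**Figure D4:**
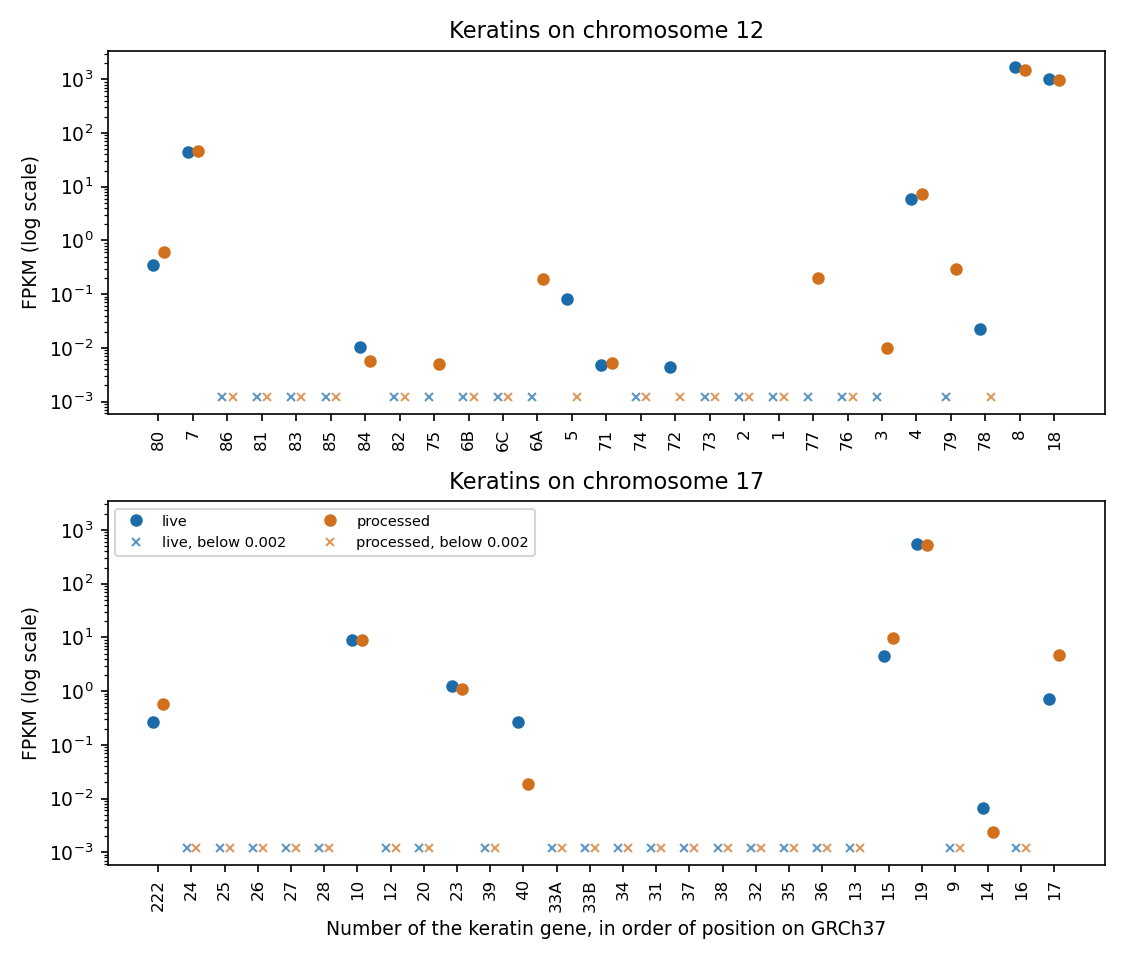
FPKM on a log axis of all 55 keratins in the order of their position on GRCh37, with chromosome 12 above and chromosome 17 below, for live (blue) and processed (orange) cells. The names on the axis leave out KRT, and crosses mark values below 0.002 FPKM, including 0. KRT8 and KRT18 are the last 2 of the 27 keratins on chromosome 12, and on chromosome 17 KRT19 (543 and 518 FPKM) stands between KRT15 and KRT9.

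Neighbours in the clusters could differ widely in level. KRT8 and KRT18 closed the series of 27 keratins on chromosome 12, and KRT78 and KRT79, the members before them, had at most 0.0221 and 0.291 FPKM. KRT7 stood second at the opposite end, next to KRT80. On chromosome 17, KRT19 stood 24th of 28, between KRT15 and KRT9, and KRT9, the keratin of palm and sole epidermis, was listed at 0 in both libraries. The spans of KRT8 and KRT18 overlap by 1084 bases on opposite strands, and that of KRT10 overlaps TMEM99 (7.54 and 6.44 FPKM) by 3490 bases on opposite strands. Whether strand was used in counting is not given in the sources used here, so fragments from these overlaps cannot be told apart without it.

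Keratin filaments are anchored at desmosomes, the cell-cell junctions built from desmosomal cadherins and a plaque of plakin and armadillo proteins, and at hemidesmosomes, which face the basement membrane. A list of 50 such partner genes, other intermediate filament genes and cornified envelope genes was examined beside the keratins. Of these, 33 reached 1 FPKM in at least one library, 2 passed 2-fold toward higher and 1 toward lower values in processed cells, and their median log2 ratio was -0.20. Background shares for all genes were 6.57% and 6.19% in these directions.

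The 6 desmosome genes that reached 1 FPKM, of 12 listed, were each lower in processed cells within 2-fold and had separate bounds. DSP, which encodes desmoplakin, the link from the plaque to keratin filaments, had 87.1 FPKM in live and 64.5 in processed cells, a log2 ratio of -0.43. PKP3, a plakophilin of the plaque, had 15.7 and 9.35 FPKM, a log2 ratio of -0.69. The plakophilin PKP2 had 43.5 and 36.2 FPKM. The cadherins DSG2 (30.1 and 23.4 FPKM) and DSC2 (30.5 and 23.0 FPKM) had log2 ratios of -0.35 and -0.39. Of all 17326 genes, 58.3% were lower in processed cells by any amount, and these 6 also stayed lower after scaling by the median ratio, with PKP2 the closest to 0 at -0.16. The skin forms DSG1, DSG3, DSC1 and PKP1 were below 0.1 FPKM in both libraries.

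Other anchoring genes differed in both directions. Among the hemidesmosome genes, ITGA6 (17.9 and 24.1 FPKM) and ITGB4 (5.81 and 7.54 FPKM), which encode the integrin of hemidesmosomes, were higher in processed cells, both within 2-fold. COL17A1 was lower (1.46 and 0.330 FPKM), with separate bounds and a log2 ratio of -0.89 that was -1.86 with a pseudocount of 0.1. PLEC, the gene of plectin, a linker of intermediate filaments, had 18.6 and 15.1 FPKM, a log2 ratio of -0.29. MACF1, a related plakin that links actin and microtubules, had 42.8 and 61.8 FPKM, a log2 ratio of 0.52. Of 6 genes listed as regulators of keratin filaments, which include the 14-3-3 genes YWHAE and YWHAZ whose proteins bind KRT18, 5 were lower and 1 higher in processed cells, and 0 passed 2-fold with the pseudocount of 1. TRADD, at 2.23 and 0.655 FPKM with separate bounds, had a log2 ratio of -0.97 that was -1.63 with a pseudocount of 0.1. YWHAE had 529 FPKM in live and 459.7 in processed cells. Of the other intermediate filament genes, VIM had a log2 ratio of -0.085, which turned to 0.016 after scaling by the median ratio. INA was the gene lower past 2-fold, at 8.39 and 2.90 FPKM, and DES was higher past 2-fold, at 0.0528 and 1.58 FPKM. In the cornified envelope list, 7 of 8 genes were listed at 0 in both libraries. The exception was TGM1, given above, with a log2 ratio of 1.82.

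**Figure D5:**
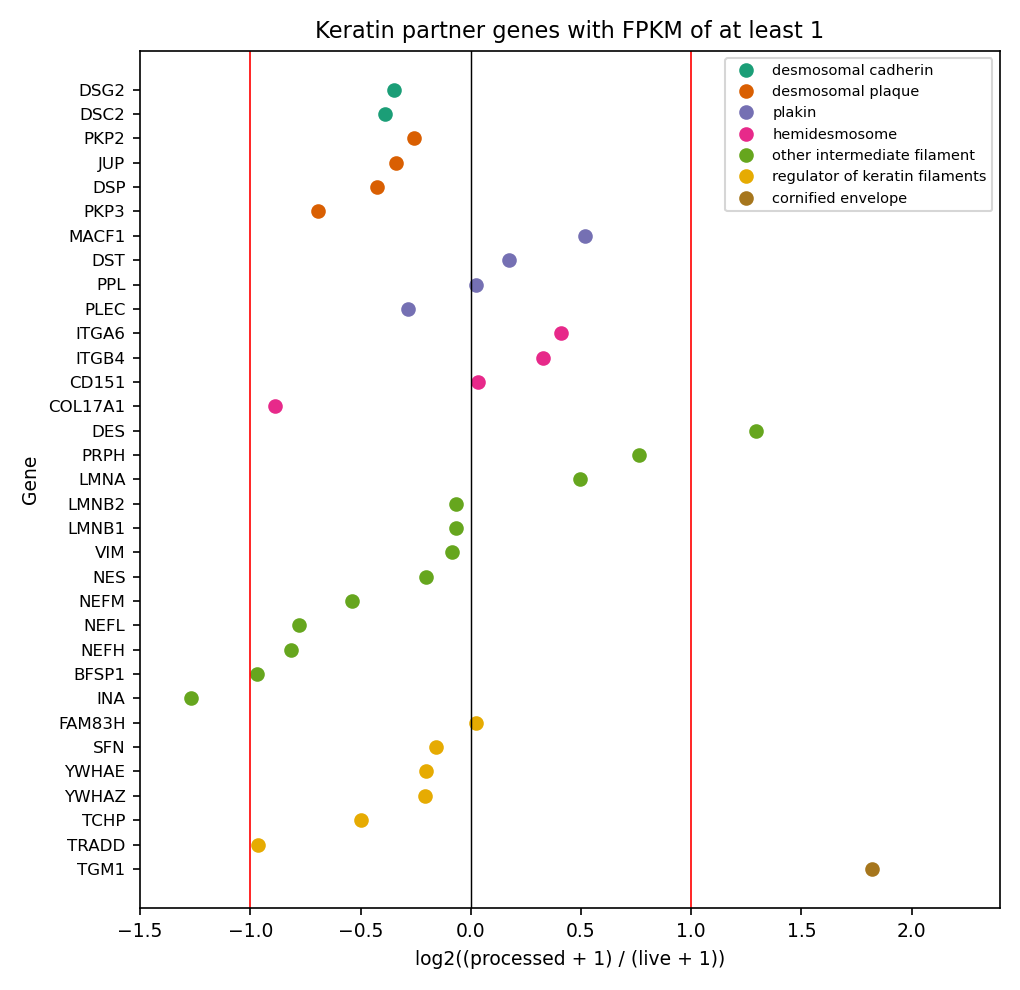
Log2 ratio of processed to live FPKM (pseudocount 1) of the 33 partner genes that reached 1 FPKM in at least one library, 1 point per gene, coloured by role. Red lines mark 2-fold. The 6 desmosome genes at the top all lie left of 0, and TGM1, DES and INA lie outside the red lines.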

How the data were processed

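RNA-seq of 1 live and 1 processed library of H1-derived Stage 6 cells was used. The authors deposited FPKM with a lower and an upper bound for each gene. Per the study's methods, paired reads of 80 nt were aligned to GRCh37/hg19 with STAR (2.2.0c) guided by GENCODE version 14, and the submitters' processing notes name Cufflinks (2.0.2) where the methods name Cuffdiff. Neither what the normalization counted nor the level of the bounds is given in the sources used here. Libraries were joined by Ensembl identifier with Python 3.11.15, numpy 2.4.6, pandas 2.3.3, scipy 1.17.1, Biopython 1.88 and matplotlib 3.10.9. Starts were converted to 1-based positions.

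The pseudocount was 1, and 2-fold and bound counts used genes that reached 1 FPKM in at least one library. The calculation was tested on simulated data, with large changes planted in genes above the levels of KRT15 and KRT17. The noise was that of counting alone, so the test does not cover variation between libraries or changes at low FPKM. GENCODE release 44 mapped to GRCh37 gave lengths, strands and sequences, and 54 of 55 keratins were found in it by identifier. KRT86 was not, and had the status LOWDATA. The step of one fragment was the median near the fullest bin (width 5.0e-04) of FPKM times the length less 170 nt, in kb, over genes with 1 transcript longer than 300 nt. Pseudogenes were aligned locally to the canonical coding sequence. The KRT8 sequence is not reported here.

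The members and lists were chosen with earlier results of these data known. Named were keratins of at least 1 FPKM, the simple epithelial keratins, KRT20, genes past 2-fold, a fixed set of partners and the 5 highest pseudogenes. Other genes were named after their values were seen. Alternatives covered the pseudocount, filters, scaling, status and the handling of pseudogenes.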

Additional observations from a re-analysis of the deposited data

How the results depend on the processing

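No paired analysis was possible because each condition has 1 library. Of 35 alternative settings of the summary values, 22 left the value within 1.5 times for a count, or within its interval from the bounds otherwise. A limit of 0.1 FPKM in place of 0 left 12 keratins detected in live and 14 in processed cells. The count of keratins past 2-fold was 2 with a pseudocount of 0.1 and 2 after scaling by the median ratio, KRT15 joining KRT17, and 0 with a filter of 5 FPKM, which removes KRT17. Without a filter, 13 keratins had separate bounds. They include KRT72, at 0.00442 FPKM or 0.781 fragments in live cells and 0 in processed cells, so such bounds can separate on less than a fragment. Adding KRT8 and KRT18 pseudogenes moved the simple epithelial share to 99.4% (live) and 99.1% (processed) and the type I to type II ratio to 0.668 and 0.715, and leaving out KRT8 and KRT18 moved that ratio to 11.1 and 10.005. With a pseudocount of 0.1, 9 partner genes passed 2-fold, COL17A1 and TRADD among them. Shares over all genes are not given for these altered settings, so the counts under them cannot be set against genes in general. Of 27 alternative settings of single keratins, 7 left the interval, and KRT18 and KRT19 changed sign under the median ratio alone. The status LOWDATA and the unknown level of the bounds limit the pseudogene values.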

Other observations

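Neuronal intermediate filament genes, at lower levels than the simple epithelial keratins, had larger differences between the libraries. Genes of low level differed more in general. Of those with a mean FPKM between 1 and 10, 16.9% passed 2-fold, against 1.86% of those with a mean of at least 100. Of the 5 neuronal genes, 1 passed 2-fold, INA. NEFM, which encodes the medium neurofilament chain, had 18.3 FPKM in live and 12.3 in processed cells. NEFL had 2.79 and 1.21 FPKM and NEFH 1.68 and 0.520 FPKM, and with INA these 4 had log2 ratios from -1.27 to -0.54. PRPH, which encodes peripherin of peripheral neurons, went the other way with 0.853 and 2.15 FPKM. The 3 neural markers beside them were also lower in processed cells, with STMN2 at 14.8 and 10.2 FPKM, ELAVL4 at 2.23 and 1.16 FPKM and TUBB3 at 149 and 129 FPKM, a sum of 166 FPKM in live and 140 in processed cells. Of all 17326 genes that reached 1 FPKM in at least one library, 58.3% were lower in processed cells by any amount. The part of neural cells in the neurofilament values was not tested.

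The nuclear lamins did not follow one direction. LMNA had 30.5 FPKM in live and 43.5 in processed cells, a log2 ratio of 0.50, whereas LMNB1 (83.2 and 79.3 FPKM) and LMNB2 (56.0 and 53.5 FPKM) had log2 ratios of -0.069 and -0.065 that turned positive after scaling by the median ratio.

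Keratin-associated protein genes of the hair shaft, 106 in the files, were above 0 in 5 cases in live and 4 in processed cells, and none reached 1 FPKM, the highest value being 0.794 FPKM.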
